A study of Triticum aestivum with 2 samples.

Results

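On a spatial transcriptomics chip carrying cross-sections of the distal region of wheat roots, 552 of 7387 tested genes were low in 1 section, called A here, and higher in both of 2 other sections, B and C. A gene was a member when its level in B and in C was each at least 4 times its level in A, which 7.47% of the tested genes met. The members were thus chosen by their levels in A, B and C, which are given below as a description with nothing read from them. Tested genes had at least 100 molecular identifiers (MIDs, single captured transcripts) over A, B and C and were not low-confidence gene models. Marker genes that the study checked on tissue sections were left out, but genes of its other cluster lists could enter. The whole series held 100979 gene IDs. A level is given in CPM, the MIDs of a gene per 1000000 MIDs of all nuclear genes in the same section, and a gene with fewer than 3 MIDs in A was set to 3 MIDs there.

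The roots came from 15-day-old seedlings of Triticum aestivum cultivar Chinese Spring. Their seeds were soaked in the cold and dark, warmed briefly in a water bath, germinated on plates of Murashige and Skoog medium and moved to soil. The roots of these seedlings were used. They were cut across at 10 μm for Stereo-seq, in which a chip of barcoded spots captures the transcripts of the tissue above it. There was 1 chip for the root cap region and 1 for the distal root region, so neither region was replicated and no p-value could be given. No treatment was named beyond the preparation of the seeds. The labels do not say how many plants or roots the sections of a chip came from.

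A root grows from a meristem at its tip, where cells pass through the G1/S and G2/M steps of the cell cycle before they elongate and differentiate. Older tissue carries xylem, whose vessel cells build thick walls, lose their contents and then conduct water. The central cylinder with xylem and phloem is enclosed by the pericycle and the endodermis, followed outwards by the cortex and the epidermis. Bread wheat is hexaploid, so most of its genes have a copy on each of the A, B and D subgenomes.

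Section A was checked against the study's marker lists, which the study chose on sections of these chips. The 4 xylem genes together reached 129 CPM in A (95% Poisson limits 111 to 150) and 23.8, 17.8 and 23.2 in B, C and a section the rule did not use, D. The label of a xylem-rich section held for this list, although it rested on 175 MIDs in A. The 5 endodermis genes were also highest in A, at 94.3 against 15.1, 16.9 and 37.5 CPM in B, C and D. Several other lists ran the opposite way. The 20 G1/S genes summed to 609 in A, 2779 in B, 6618 in C and 4718 in D, and the 20 G2/M genes to 68.5, 411, 526 and 360. The 18 epidermis genes summed to 514 in A and 2070, 1914 and 2002 in B, C and D. The 5 phloem genes, with 5 MIDs in A, stood at 3.68 in A and 16.8, 15.5 and 27.5 in B, C and D. By contrast, the 14 cortex genes did not set A apart, with 2164 in A, 696 in B, 3021 in C and 1220 in D. Nor did the 8 provascular genes, with 131 in A, 52.2 in B, 202 in C and 94.5 in D. Root cap genes had 0 MIDs in all 4 sections, which allows at most 2.72 CPM in A. The part of these list differences in the levels of the members was not tested.

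The 4 sections held 1357144 (A), 1723340 (B), 2194634 (C) and 1893524 (D) MIDs of nuclear genes, and A carried 1.60 MIDs per spot against 1.47, 1.94 and 1.67 in B, C and D. MIDs were also found outside the tissue, and a ring around each section held 67.6% to 79.1% of the MID density inside. All intervals cover counting error only, and fewer cells of a type cannot be told apart from less RNA per cell.

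The members together reached 6355 CPM in A (6222 to 6491), 38348 in B (38056 to 38642) and 57521 in C (57204 to 57839). In the ring around A they stood at 8637 CPM, above the level inside, whereas in the rings of B, C and D they stood at 30228, 48176 and 36601, below the level inside. With the ring density of each gene subtracted, 913 genes met the rule, 415 of them members. Among single members the lower of the 2 ratios over A had a median of 5.91 and ran from 4.00 to 25.7. It was at least 8 for 158 members, of which 95 did not rest on the floor in A. In A, 84 members had at most 3 MIDs and 7 of these had 0. The members had a median of 226 MIDs over A, B and C, beside 196 for the tested genes, with 246 members under 200 and 100 members with at least 500.

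**Figure D1:**
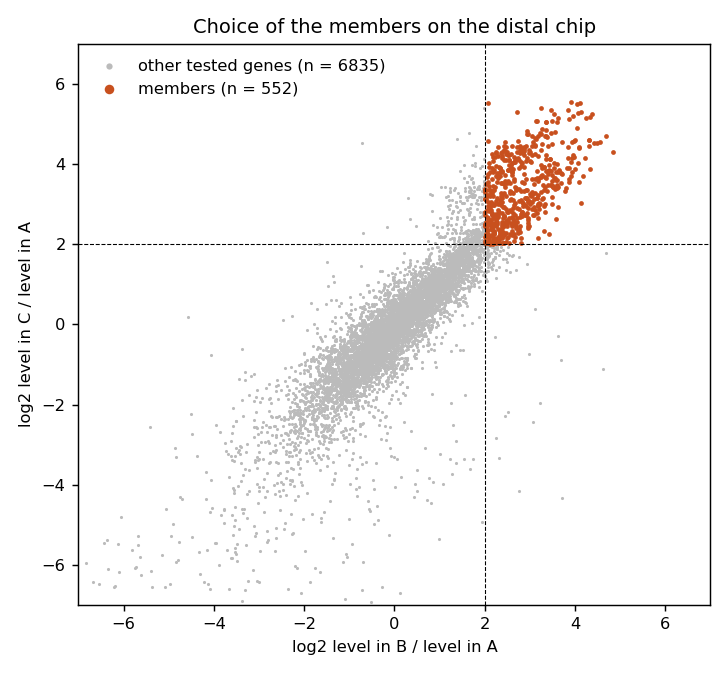
Each point is 1 tested gene, with the log2 ratio of its level in section B over A on the horizontal axis and that of C over A on the vertical axis; the dashed lines mark the 4-fold limits, and 36 genes lie outside the plotted range. The 552 members fill the upper right corner by construction and lie mostly above equal ratios, while the 6835 other genes spread around no difference.

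The limit cut through a continuum. Just inside it, TraesCS1A03G0879000 had 37 MIDs in A, 188 in B and 522 in C, a lower ratio of 4.001. TraesCS6B03G0672700, with 72, 366 and 525 MIDs, and TraesCS7D03G0221800, with 12, 61 and 193, both stood at 4.003. Just outside it, TraesCS6A03G0619400 had 194, 985 and 1453 MIDs, a lower ratio of 3.998. TraesCS3A03G1258500, with 13, 80 and 84 MIDs, and TraesCS6B03G0637200, with 11, 70 and 71, stood at 3.996 and 3.991.

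The 12 members with the most MIDs held 15.9% of all member MIDs in A, B and C. TraesCS3D03G0057300 came first, with 151 CPM in A, 1068 in B, 1062 in C and 1289 in D. TraesCS3A03G0881900 followed with 144 in A, 824 in B, 1018 in C and 926 in D, and TraesCS3D03G0809900 with 177, 791, 978 and 804. The other 9 had between 42.0 and 146 CPM in A and between 303 and 938 in B, C and D. No protein name was at hand for most of them.

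The fifth of these, TraesCS2B03G1008200, is annotated as a defensin-like protein CAL1, a small cysteine-rich secreted protein known from rice for binding cadmium. It had 57 MIDs in A, 1163 in B, 1352 in C and 1335 in D, or 42.0, 675, 616 and 705 CPM. B exceeded A 16.1-fold (12.3 to 21.3) and C exceeded A 14.7-fold (11.3 to 19.5). The levels in B, C and D lay close together and far above that in A.

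TraesCS3B03G1008200, whose orthogroup the study's tables give the alias UL1X, had 146 CPM in A, 671 in B, 938 in C and 714 in D. TraesCS1D03G1047300, a histone deacetylase HDT2-like protein of the plant-specific HD2 family, had 27.3 in A, 192 in B, 226 in C and 205 in D. TraesCS7A03G1349900, an uncharacterized protein, had 34.6, 236, 363 and 337. Only these and the GRP2 pair described below carried a protein name or an orthogroup alias, 6 members in all.

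**Figure D2:**
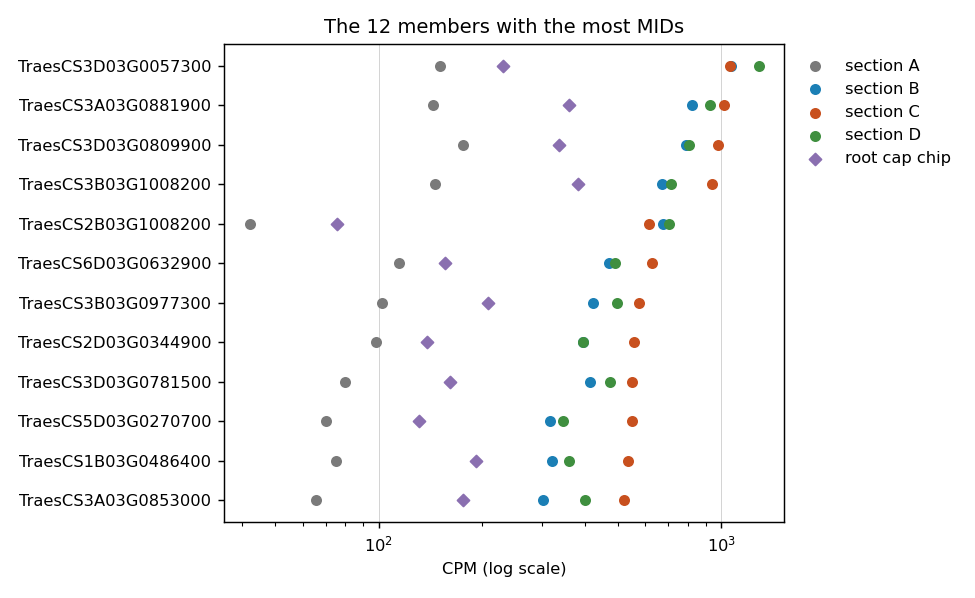
Levels in CPM, on a log axis, of the 12 members with the most MIDs, in sections A to D (circles) and on the whole root cap chip (diamonds). In every row A is lowest, the root cap chip lies next above it, and B, C and D lie together to the right.

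Section D was not used by the rule but shares the library and the same A with it, so its ratios are no independent support. The members summed to 45678 CPM in D (45374 to 45983), between B and C. D was at least 4 times A for 521 members (94.4%), beside 9.88% of the tested genes, and at least 2 times A for all 552, beside 25.9%. The median ratio of D over A was 8.02 for the members and 1.06 for the tested genes. The lowest ratios were those of TraesCS6D03G0502500 (7 MIDs in A and 22 in D, 2.25), TraesCS3D03G0684400 (6 and 21, 2.51), TraesCS7A03G1268100 (6 and 22, 2.63), TraesCS3B03G1278300 (7 and 26, 2.66) and TraesCS6A03G0449100 (9 and 36, 2.87). Each of these 5 rested on fewer than 10 MIDs in A.

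B and C were not equal for the members. The ratio of C over B had a median of 1.35 over the members and 0.97 over the tested genes. C was at least 2 times B for 174 members (31.5%), beside 6.5% of the tested genes, and B at least 2 times C for 3 members (0.543%), beside 6.76%. Both levels entered the rule, so this is a description of how the members vary. The highest ratio was that of TraesCS7A03G1349800, with 16 MIDs in B, 222 in C and 47 in D.

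The 174 members with C at least 2 times B summed to 1340 CPM in A, 7878 in B, 14219 in D and 21461 in C. The remaining 378 had 5016 in A, 30470 in B, 31458 in D and 36060 in C. D lay between B and C for 308 members (55.8%), beside 47.4% of the tested genes. It did so for 168 of the 174, where B and C are far apart by the choice, beside 89.2% of the tested genes with C at least 2 times B, and for 140 of the 378. The G1/S list, which holds none of the members, followed the order A, B, D, C as the 174 did.

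The study's tables, of which some were at hand only in part, listed 64 of the 552 members anywhere. The cluster counts below come from the study's lists of genes shared by matched clusters, not from its full marker list of each cluster. These lists placed 22 members (3.99%), beside 0.46% of the tested genes, under the single-cell cluster that the study calls G1/S. The study matches that cluster to the proximal meristem of an earlier single-nucleus wheat atlas. These 22 summed to 245 CPM in A, 1362 in B, 3412 in C and 2443 in D, with C over B between 1.71 and 3.81. Another 7 members (1.27%), beside 0.149% of the tested genes, stood under the single-cell cluster called G2/M, matched to the 2 meristem clusters of that atlas, and these had 220 CPM in A, 1720 in B, 1612 in C and 2082 in D. TraesCS3D03G0057300, the most abundant member, was 1 of the 7. Of the 22, 18 belonged to the 174 members at least 2 times higher in C than in B, and of the 7, none did.

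Genes of the marker lists could not be members, but the same ratios were taken for them. At least 4 times A in B and C were 16 of the 20 G1/S genes, 5 of the 7 G2/M genes with 100 MIDs and 9 of the 18 epidermis genes, beside 7.47% of the tested genes. Of 11 cortex genes with 100 MIDs none reached the limit, and their median lower ratio was 0.119. The 2 provascular genes with 100 MIDs did not reach it either, with lower ratios of 0.242 and 1.15. The lists of xylem, phloem, root cap and endodermis held no gene with 100 MIDs.

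**Figure D3:**
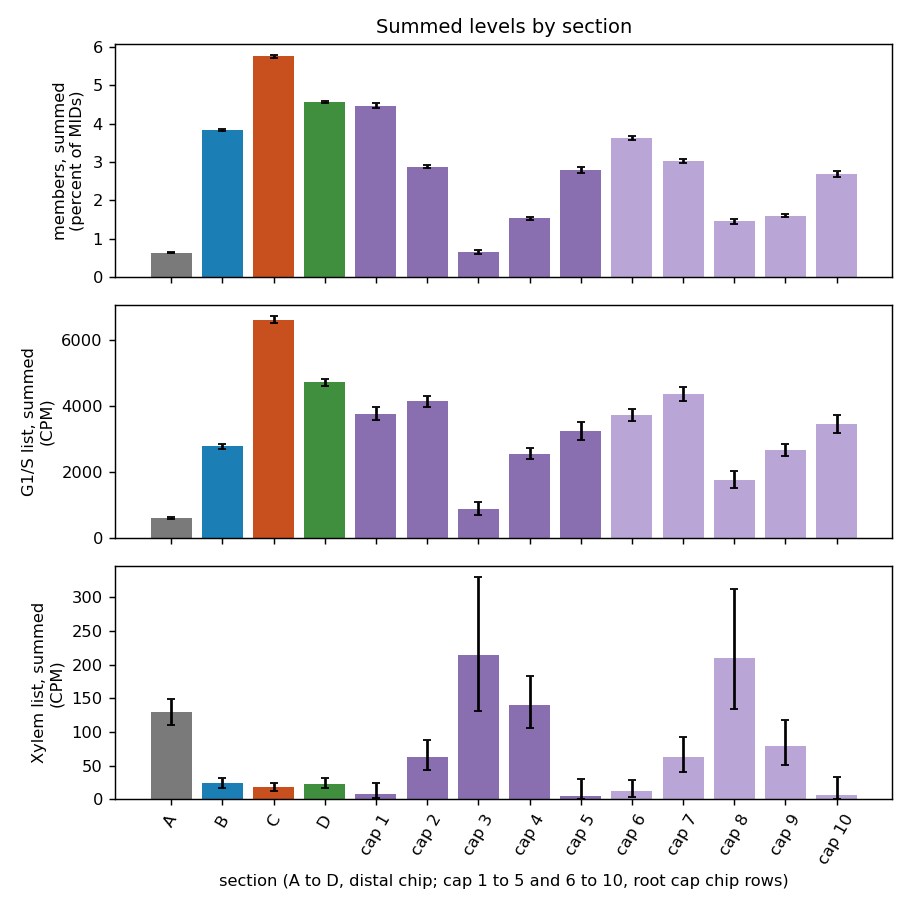
Summed level of the members (top, in percent of all nuclear MIDs of the section), the G1/S list (middle) and the xylem list (bottom, both in CPM) in the 4 distal sections and in the 10 sections of the root cap chip; error bars are 95% Poisson limits. Member levels were lowest in A and in root cap sections 3, 8 and 4, and the xylem list was highest in root cap sections 3, 8 and 4 and in A.

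Position inside a section was not used by the rule. Distance from the section centre was divided by the section radius. The 4 classes were below 0.37 (centre), 0.37 to 0.50 (endodermis and pericycle), 0.50 to 0.85 (cortex) and 0.85 to 1 (outermost). Their tissue names are labels of distance, and no check against the position of marker genes is given here. In B, the member MIDs exceeded the share of all MIDs in the centre by 0.23 (0.20 to 0.26) and in the 0.37 to 0.50 class by 0.27 (0.24 to 0.30) on the log2 scale, and were below it by -0.03 in the cortex class and -0.18 (-0.20 to -0.16) in the outermost class. In C, these values were 0.19, 0.34 (0.32 to 0.36), -0.09 and -0.12. In D they were 0.04, 0.31 (0.29 to 0.34), -0.02 and -0.12. The 0.37 to 0.50 class held the highest enrichment in all 3 sections, while the enrichment at the centre was small in D. The innermost rings, at relative radii 0.025 to 0.125, were not enriched in B and D. Members stood there at 28920 to 35000 CPM in B, below the 38348 of the whole section, and at 37872 to 39201 in D, below 45678. In C they ran from 56520 to 70418, against 57521.

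Single members followed in the majority. The mean radius of a member's MIDs lay nearer the centre than that of all MIDs in both B and C for 378 members (68.5%), beside 33% of the tested genes, and farther out in both for 55 (9.96%), beside 31.1%. In D it lay nearer for 433 members (78.4%), beside 52.5%. The median shift was -0.031 of a radius in B, -0.032 in C and -0.026 in D, against -0.004, 0.002 and -0.003 over the tested genes. The 0.37 to 0.50 class was enriched in both B and C for 316 members (57.2%), beside 27.2% of the tested genes, and the outermost class for 57 (10.3%), beside 25.2%.

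**Figure D4:**
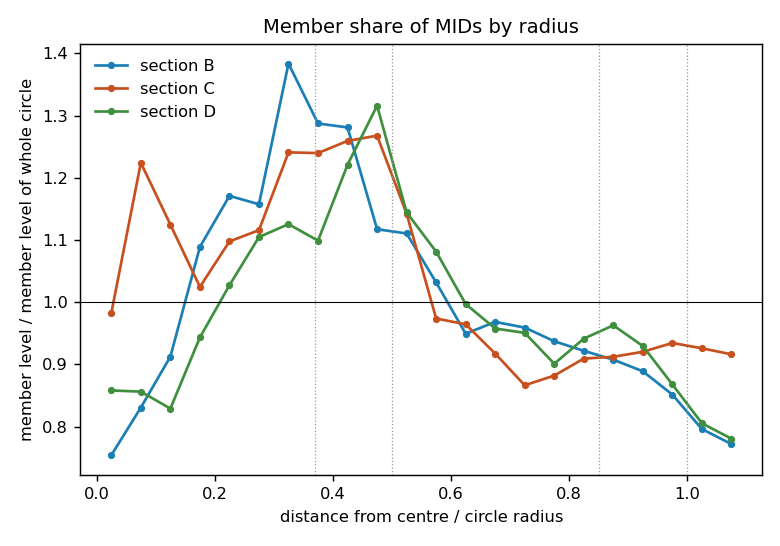
Member level in rings of relative radius, divided by the member level of the whole circle, for sections B, C and D; dotted lines mark the class limits at 0.37, 0.50, 0.85 and 1. All 3 curves peak between 0.3 and 0.5 of the radius and stay below 1 from 0.65 outwards. Near the centre C lies above B and D, which fall below 1 there.

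**Figure D5:**
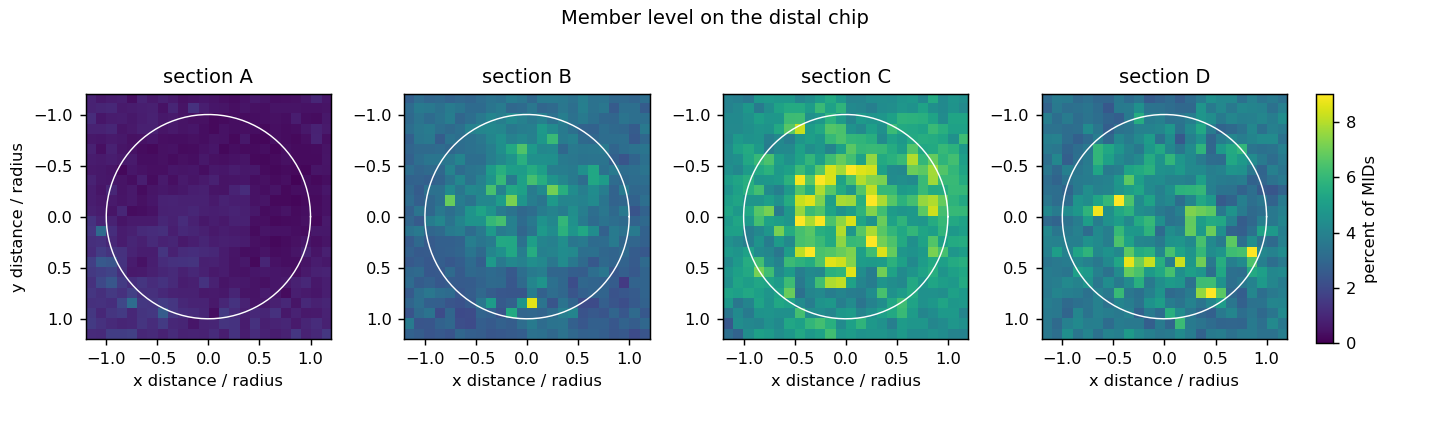
Member level (colour, in percent of all nuclear MIDs, with higher values drawn at 9) in a grid of 24 by 24 squares over each distal section; axes are distances from the section centre in section radii and the white line is the section outline. Inside the outline of A the squares run from 0.0942% to 1.58%, lower at the upper right than at the lower left, where squares outside it reach 3.17%, while those inside B, C and D start at 2.13%, 3.31% and 2.52%, and C has the highest median, 5.45%.

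The 174 members higher in C lay nearer the centre than the other 378. Their enrichment in the 0.37 to 0.50 class was 0.58 in B and C together and 0.57 in D, against 0.18 in both for the other members, and their median shift was -0.051 against -0.021. In D, 157 of the 174 and 276 of the 378 lay nearer the centre than all MIDs.

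The most central member was TraesCS3A03G0091900, with a mean radius of 0.453 and a log2 enrichment of 2.13 in the central class, on 43 MIDs in B and 58 in C. It was shifted by -0.33 of a radius in D also. The next were TraesCS4B03G0669400 (0.547), TraesCS7D03G0264900 (0.549), TraesCS3B03G0260600 (0.555) and TraesCS2B03G0857900 (0.561), all of them enriched in the 0.37 to 0.50 class, by 0.85 to 1.32. No function was at hand for these 5 genes.

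A small number of members lay at the opposite edge. TraesCS5D03G0659700 had a mean radius of 0.905, TraesCS5A03G0692200 0.901, TraesCS5D03G0889000 0.870, TraesCS2D03G1303900 0.867 and TraesCS3B03G1278300 0.852. Their enrichment in the outermost class ran from 1.29 to 1.66, and in D they were shifted outwards by 0.18 to 0.25 of a radius. These 5 depended on the outline. With circles at 0.9 times the radius, 4 of them no longer met the rule, with log2 ratios of 1.39, 0.94, 0.72 and 0.89 for TraesCS5D03G0659700, TraesCS5A03G0692200, TraesCS5D03G0889000 and TraesCS3B03G1278300, and with the ring density subtracted the lower of B and C fell to 0 for all 5. TraesCS7A03G1349800 and TraesCS7A03G1349900, which neighbour each other on chromosome 7A by their gene IDs, were also peripheral, with mean radii of 0.832 and 0.841 and outermost enrichments of 1.18 and 1.09.

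The defensin-like TraesCS2B03G1008200 showed a further pattern, with -2.00 at the centre, -0.88 in the 0.37 to 0.50 class, 0.59 in the cortex class and -0.58 in the outermost class. TraesCS3D03G0057300, the most abundant member, was likewise enriched in the cortex class, by 0.30, and low in the 0.37 to 0.50 class, by -1.26. The HDT2-like TraesCS1D03G1047300 had 0.54 at the centre and 0.36 in the 0.37 to 0.50 class.

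On the root cap chip all 552 members had MIDs, and together they reached 20272 CPM (20220 to 20325). This was 3.19 times the level in A and 0.413 times that in B and C together. The root cap value covers the whole chip, spots outside the tissue included, whereas A, B and C are outlined sections. Inside the outlined root cap sections the members reached 27504 CPM, and over the whole distal chip 30692 CPM. The comparison is one of 2 libraries without replicates, and the chips differed in composition, with 61.1% exonic MIDs on the root cap chip and 77.1% on the distal chip, against 97.0% for the members on the root cap chip. With the 100 genes with the most MIDs left out of the total, the ratio to B and C was 0.665. The chip level was below that of B and C for 547 members (99.1%), beside 83.8% of the tested genes, and at most 0.5 of it for 429 (77.7%), beside 37.4%. It was at least 4 times that in A for 214 members (38.8%), beside 3.79%. Low levels in A and high levels in B and C chose the members, which can by itself move these 3 shares away from those of the tested genes.

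The root cap chip held 10 outlined sections in 2 rows of 5, and sections at the same place of the rows are compared here. At place 1 the members reached 44611 and 36259 CPM in the 2 rows. Place 2 had 28803 and 30200, place 3 had 6533 and 14497, place 4 had 15343 and 15971, and place 5 had 27950 and 26950. Both rows gave place 1 the highest level and place 3 the lowest, and places 2 and 5 lay close together. The ring outside the outline was denser than the inside at place 3, with 122% and 136%, and at place 2 in 1 row, with 112%.

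The xylem list read 214 and 210 CPM at place 3 and 140 and 79.6 at place 4, against 8.06 and 12.3 at place 1 and 5.42 and 5.83 at place 5. These values rested on few MIDs, 20 and 24 at place 3 and 53 and 25 at place 4. Place 1 had 3 and 5 MIDs of this list, and place 5 had 1 in each row. The root cap list was at 3203 and 4783 at place 5 and at most 95.3 in the other 8 sections. The epidermis list was highest at place 1, with 3460 and 3226, and the G1/S list at place 2, with 4144 and 4356. The part of these lists in the member levels was not tested.

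Between most places single members followed these sums. Place 1 was at least 2 times place 4 in both rows for 236 members (42.8%), beside 13.5% of the tested genes, and the reverse held for 2 members (0.362%), beside 13.6%. Place 1 exceeded place 3 by this measure for 108 members (19.6%), beside 7.73%, and the reverse held for 0, beside 10.5%. Place 5 exceeded place 4 for 135 members (24.5%), beside 10.3%, and place 2 exceeded place 4 for 120 (21.7%), beside 5.01%. Place 4 was at least 2 times place 3 for 8 members (1.45%), beside 1.81%, and the reverse held for 5 (0.906%), beside 1.95%. In all of these counts the lower place was set to at least 3 MIDs. Sections at place 3 held only 93674 and 114159 MIDs, so counts over place 3 are limited by depth and cannot compare it with place 4. The counts given cover 8 of the 20 directions between the 5 places. Over all 20, the share of members exceeded that of the tested genes in 9 and fell short of it in 11.

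The root cap chip exceeded B and C for 5 members. TraesCS5D03G0889000 had 12.5 CPM in A, 50.5 in B, 69.7 in C and 48.6 in D, and 315 on the root cap chip, 5.14 times B and C together. TraesCS7A03G1349800 had 2.21, 9.28, 101 and 24.8 in A to D and 131 on the root cap chip, and TraesCS2B03G0234400 had 36.1, 267, 241 and 593 and 474 on the root cap chip. The other two, TraesCS5D03G1111200 and TraesCS3A03G0091900, exceeded B and C by 1.08 and 1.02 times. TraesCS5D03G0889000 reached 437 and 500 CPM at place 4, where the members together were low.

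At the other end, 5 members were nearly missing from the root cap chip. TraesCS2D03G0277300 had 32 MIDs on the whole chip, against 65 in B and 131 in C alone. TraesCS2A03G0267800 had 44, TraesCS2B03G0369200 had 52, TraesCS7A03G0108600 had 25 and TraesCS1B03G0263000 had 95. The first 3, from chromosomes 2D, 2A and 2B, had the same distribution in B and C, with cortex class enrichments of 0.76, 0.85 and 0.75 and central values of -2.69, -2.29 and -2.30. Whether they are copies of 1 gene on the 3 subgenomes was not analysed here.

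The defensin-like TraesCS2B03G1008200 was also low on the root cap chip, at 75.5 CPM, 0.118 times B and C. Its sections were uneven, with 401 and 408 at place 5, 129 and 194 at place 1, and 18.5 to 28.6 elsewhere. TraesCS3D03G0057300 was also highest at places 1 and 5, with 543 and 420 at place 1, 396 and 425 at place 5 and 0 to 169 elsewhere. Unlike the defensin-like gene, it was not clearly higher at place 5 than at place 1.

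Homeologs, the copies of a gene on the 3 subgenomes, could be read only where the study's tables gave a shared orthogroup or annotation. This was the case for the orthogroup with the alias GRP2, known from Arabidopsis for glycine-rich proteins, on chromosome group 3. TraesCS3B03G1129700 had 75 MIDs in A, 400 in B, 619 in C and 446 in D, and TraesCS3D03G0916100 had 85, 482, 747 and 505. The copy on 3A, TraesCS3A03G0980900, had 90, 455, 695 and 498 and missed the limit in B by a ratio of 3.98, with 4.78 in C. All 3 copies were thus low in A to a like degree, although only 2 were members.

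Members came from the subgenomes in about the same shares as the tested genes. Subgenome A gave 188 members (34.1%, beside 33.4% of the tested genes), B 182 (33.0%, beside 33.5%) and D 181 (32.8%, beside 32.5%). The last 1 was unplaced. By MIDs, D held 37.2% of the member MIDs in sections A, B and C (37.0 to 37.4), beside 30.1% of the MIDs of the tested genes, and A held 31.5%, beside 36.0%. Single abundant members enter these shares with full weight.

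Chromosome group 6 held 109 members of 907 tested genes (12.0%) and group 1 held 91 of 1085 (8.39%), and the other 5 groups ranged from 5.63% to 7.64%. On 6A, 6B and 6D the shares were 12.7%, 11.9% and 11.5%. Of the 174 members higher in C, 88 (50.6%) lay on groups 1 and 6, against 112 of the other 378 (29.6%) and 27.0% of the tested genes.

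Members also lay in runs of neighbouring gene IDs, which number genes along each chromosome. Another member lay within 1000 ID numbers of 114 members (20.7%), beside 6.81% of the tested genes. They formed 48 runs, and 72 of the 114 members were on groups 1 and 6. The longest run had 6 members, from TraesCS6B03G0110300 to TraesCS6B03G0111800, with 36.8 CPM in A, 198 in B, 513 in C and 395 in D over the run. A run of 4 from TraesCS1A03G0878900 to TraesCS1A03G0879600 had 56.7, 318, 821 and 602, and a run of 4 from TraesCS6D03G0079300 to TraesCS6D03G0080100 had 44.2, 221, 672 and 452. These 3 runs had the order A, B, D, C from low to high, as did 38 of the 48 runs. This order held for 273 members (49.5%), beside 14.7% of the tested genes. The rule put A below B and C for every member, and D was at least 2 times A for all 552. Only the order of B, C and D was thus free, which by itself raises the share of members and of runs. Genes of a run may share sequence, and the counting could then have split their reads.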

How the data were processed

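The authors processed the Stereo-seq reads with the STOmics Analysis Workflow (SAW). The deposited tables give, per gene and spot of a chip, a count of MIDs and a count of those in exons, with no normalization and with spots outside the tissue included. No source used here names the genome build of these counts. The root cap chip held 28281117 and the distal chip 77512045 MIDs of nuclear genes, and the 545 and 3832 MIDs of organelle genes were left out.

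Sections were circles on maps of all MIDs: A, B and C as set by the rule, D and the 10 root cap sections drawn by hand. Rings outside them ran from 50 to 300 spots. Levels, ratios and radius classes were computed with Python 3.11.15, numpy 2.4.6, pandas 2.3.3 and SciPy 1.17.1. The rule was also run on simulated Poisson counts with planted falls in A. Those counts held no MIDs spread outside the tissue, so that run checked the code only. Limits are exact 95% Poisson limits, or exact conditional limits for ratios. The members and lists were chosen with earlier results of these data known.

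Genes were named by rule: the 12 members with most MIDs, the 5 at each extreme of radius and of root cap chip level over B and C, the 15 most abundant annotated ones (6 were found), the 3 at each side of the 4-fold limit, homeologs found for these, and the 5 lowest ratios of D over A. TraesCS7A03G1349800 was named again beside its neighbour after their values were seen, as were the runs of neighbouring IDs. Annotation came from the study's tables, and the keyword search of family names found 1 member among 2 tested histone-related genes, 1 among 3 defensins and 0 for each of the other keywords. The reference table of gene names matched none of the IDs. Gene lengths and sequences were not used here, so levels of different genes are not compared per length. The alternatives were another fold limit, MID minimum, circle size, ring subtraction, totals without the most abundant genes, exonic MIDs, other class limits and single sections.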

Additional observations from a re-analysis of the deposited data

How the results depend on the processing

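The number of members followed its thresholds. It was 930 at a fold limit of 3 and 269 at 6, 904 with at least 50 MIDs and 306 with at least 200, against 552. With the density in a ring outside each circle subtracted, 913 genes passed, of which 415 were among the 552. The rule on B alone gave 642 genes and on C alone 848, both chosen after seeing the data. The other settings gave 481 to 560. The count of members with D at least 4 times A, 521, ran from 443 (ring subtracted) to 520. It was 437 of 468 without the members at or below the floor in A, a setting chosen after seeing the data.

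The enrichment of 0.32 in the 0.37 to 0.50 class was 0.34 and 0.26 with class limits 10% closer and farther out, 0.28 with circles 1.1 times as wide, 0.34 without section B, 0.27 without section C, and 0.27 without members in runs of neighbouring IDs, the last chosen after seeing the data. The ratio of 0.413 between the root cap chip and B and C was 0.560 inside the outlined sections, 0.665 without the 100 most abundant genes, 0.592 with exonic MIDs, 0.352 without section B, 0.529 without section C, and 0.428 without the 12 most abundant members, again chosen after seeing the data. Over single genes the median of this ratio was 0.394 for the members and 0.592 for the tested genes, so 1 is no reference for it. High levels in B and C chose the members, which can by itself lower the ratio. The D subgenome held 36.6% of member MIDs on the whole chip, against 37.2% in the sections. The cause of these shifts was not tested.

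Of the 41 named members, the 5 outermost had no value left after ring subtraction, 17 moved beyond their counting limits and 18 did not. TraesCS3D03G0684400, with 6 MIDs in A, reversed to a log2 ratio of -0.64. With the other 4 settings at most 4 of the 41 moved beyond their limits. No paired analysis was possible because each region had 1 library. Members near 100 MIDs, and those with under 10 MIDs in A, are limited by depth.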
